A study of Mus musculus with 12 samples.

Results

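Cytosolic ribosomal protein genes encode the proteins that, with ribosomal RNA, make up the small (40S) and large (60S) subunits of the ribosome. They were taken as all gene symbols made of Rpl or Rps with a number and at most 1 of the letters a, x, y or l, or with p0 to p2 or a. The rule found 82 of the 33615 gene symbols in the table, 32 of the small and 50 of the large subunit, with 443 transcripts among them. It leaves out ribosomal proteins with other names, such as Fau, Rps3a1 and Rack1.

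Frozen mouse hearts were profiled by bulk RNA sequencing in 3 groups of 4 libraries. In the I/R + ML264 group, hearts had 30 min of ischemia and 2 h of reperfusion together with ML264, a compound given to inhibit the transcription factor KLF5. The I/R group had the same ischemia and reperfusion, and the Sham group was operated without it, with a 2 h label. Strain, sex, age, batch and the dose of ML264 are not in the labels, nor is whether the libraries of a group come from separate animals. The p-values therefore reflect how far these libraries spread, which may be technical in part, although Y-linked transcripts differed between libraries within both injured groups.

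The proteins are made in matched amounts and join ribosomal RNA in the nucleolus, and most of them are found in every ribosome. Their mRNAs start with a C followed by a run of pyrimidines, the 5′ terminal oligopyrimidine (TOP) motif, through which mTORC1 and LARP1 control their translation. Most have many processed pseudogenes, which are copies of the mRNA inserted elsewhere in the genome, so that a read can match more than 1 gene.

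The TOP motif is shown here because it is the shared feature of these genes at the level of sequence. RefSeq promoters (GRCm38.p6) matched 60 of the 82 genes. A C followed by at least 4 C or T bases, starting within 5 bases of the annotated start on the gene strand, was in 27 of the 60 (45.0%) and in 18.5% of all 27025 promoters, and a tract from the start base itself in 20% and 2.49%. The windows below run from 10 bases before the start to 20 bases from it, 5′ to 3′ on the gene strand, with the tract in capitals. Rps24 has the highest level per length of all members, Rps27 and Rps27l are paralogs, Rplp2 is a protein of the ribosomal stalk, Rps6 is the substrate of the S6 kinases, and Rps15a separated I/R from Sham.
Rps24 (chr14:24490668-24490697, plus strand): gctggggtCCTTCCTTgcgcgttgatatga
Rps27 (chr3:90213629-90213658, minus strand): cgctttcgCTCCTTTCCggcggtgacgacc
Rps27l (chr9:66946076-66946105, plus strand): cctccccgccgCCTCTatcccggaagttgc
Rplp2 (chr7:141447641-141447670, plus strand): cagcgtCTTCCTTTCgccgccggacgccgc
Rps6 (chr4:86857348-86857377, minus strand): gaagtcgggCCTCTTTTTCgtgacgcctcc
Rps15a (chr7:118116128-118116157, minus strand): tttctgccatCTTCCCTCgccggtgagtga
In these windows the Rps27l tract is the shortest. Among other motifs searched over the 300 bases of each promoter, CACCC on either strand, the core of many KLF sites, was in 55.0% of the 60 and in 56.7% of all promoters. GGGCGG on either strand was in 58.3% and 35.9%, and TATAAA on the gene strand in 8.33% and 8.88%. Each motif was searched on its own, so a base may belong to more than 1, and a match describes letters only.

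Library totals were 23.14 to 28.14 M estimated counts (M is 1000000) in I/R + ML264, 25.44 to 29.93 M in I/R and 22.26 to 28.33 M in Sham. A gene with no read could lie at up to 0.1002 to 0.1348 CPM (3 counts per library, as counts per 1000000 of its unscaled total). The tissue label was checked by 6 cardiomyocyte markers, whose sum was 21237.3 to 25326.0 CPM in I/R + ML264, 21849.1 to 24726.6 in I/R and 19807.5 to 23206.3 in Sham. Y-linked transcripts summed to 152.83 to 160.07 CPM in all Sham libraries, I/R libraries 2 and 3 and I/R + ML264 libraries 3 and 4, and to 17.88 to 23.99 CPM in the others. The clock gene Arntl had 10.39 to 15.32 CPM in 3 libraries, I/R 1 and Sham 2 and 3, but 1.05 to 3.26 CPM elsewhere.

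Together the ribosomal protein genes took less than a thousandth of each library's estimated counts in this table. Their levels summed to 757.5 ± 41.2 CPM in I/R + ML264, 767.8 ± 28.8 in I/R and 699.8 ± 48.4 in Sham (SD, n = 4). The single gene Naca averaged 972.5 ± 56.5, 1046.7 ± 77.9 and 847.3 ± 63.9 CPM in the same groups. The shares, levels per length and fold changes of members below describe the table alone. Whether it holds all reads of the ribosomal protein genes was not tested. Their summed share was 0.0783%, 0.0873%, 0.0769% and 0.0697% in I/R + ML264 libraries 1 to 4, 0.0701%, 0.0741%, 0.0758% and 0.0716% in I/R libraries 1 to 4, and 0.0627%, 0.0747%, 0.0755% and 0.0736% in Sham libraries 1 to 4. The means were 0.07803 ± 0.00721%, 0.0729 ± 0.00253% and 0.07164 ± 0.00598% in I/R + ML264, I/R and Sham (SD, n = 4), and the groups overlapped. I/R + ML264 library 2 was the highest of the 12 and Sham library 1 the lowest. Mitochondrially encoded genes held 37.34 ± 2.09%, 39.71 ± 1.36% and 38.39 ± 2.11% of the counts in the same groups. With them left out of the total, the shares were 0.1244%, 0.1209% and 0.1166%. In bulk tissue, fewer cells of a type and less RNA per cell cannot be told apart.

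Levels differed widely between members. Per length (CPM per kb, using 1 fixed transcript length per gene), the 79 members that passed the filter on low counts ran from 0.802 to 70.8 over the 12 libraries, a ratio of 88.3, with a median of 8.57. These levels and their order depend in part on the annotated length chosen, which was 1242 bases for Rpl12. Rps24, a 40S protein, led with 70.8. Of the 60S proteins, Rpl10, a late-joining protein near the P site, had 42.2, Rpl4, which lines the exit tunnel, had 39.9, and Rpl3, a protein near the peptidyl transferase centre, had 28.3. The lowest means were 0.802 for Rps4l, which is annotated as a transcribed processed pseudogene, 1.01 for Rpl12, 1.66 for Rpl37, 1.67 for Rps26 and 1.68 for Rpl39. Rpl12 held 20.5% of the counts of itself and the 5 pseudogenes added to it by sequence. It averaged 1.06 ± 0.478, 1.45 ± 0.0601 and 1.26 ± 0.374 CPM in I/R + ML264, I/R and Sham (SD, n = 4). With those pseudogenes added, the means were 5.82 ± 0.863, 6.64 ± 0.847 and 6.0 ± 0.996 CPM. The medians were 6.97 for the 32 members of the small subunit and 9.24 for the 47 of the large subunit. Rpl10l and Rpl39l had 0 counts in all libraries, and Rpl6l, annotated as a processed pseudogene, had 1 count.

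**Figure D1:**
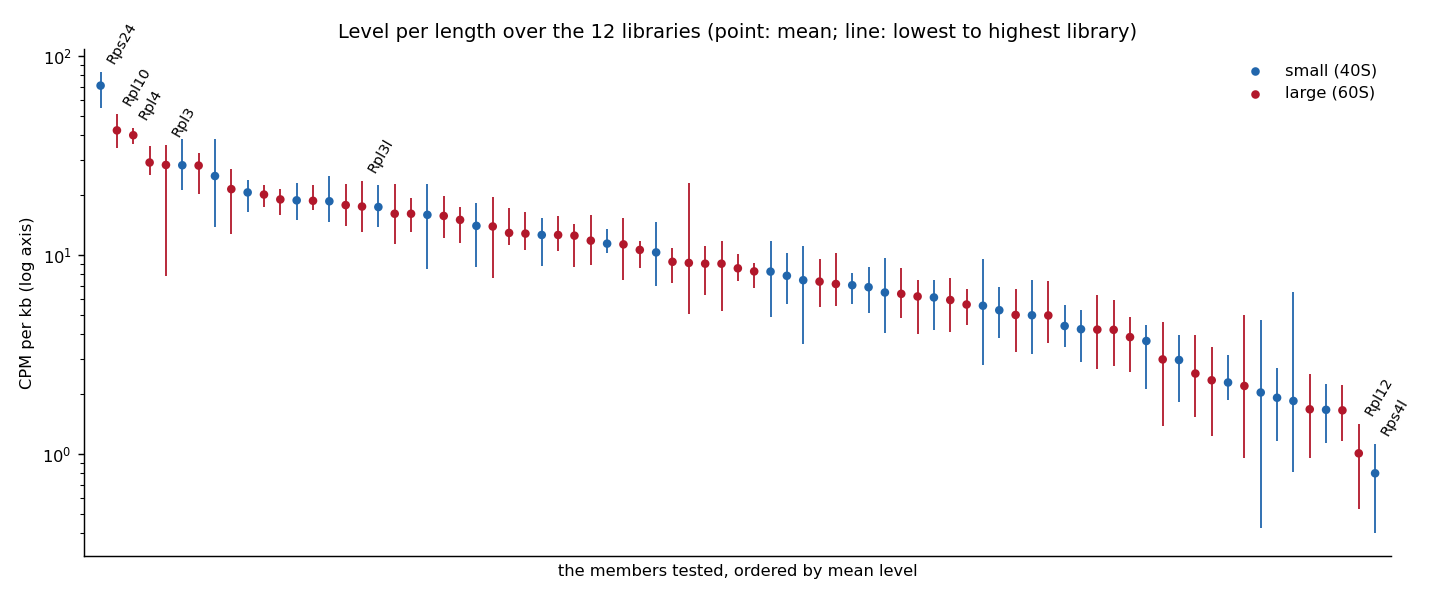
Level per length (CPM per kb, log axis) of the 79 members tested, ordered by mean, with blue points for the small and red points for the large subunit. Points are means over 12 libraries and lines run from the lowest to the highest library, from Rps24 at 70.8 to Rps4l at 0.802.

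Members differed in how steady they were over the 12 libraries. The highest library was a median of 1.81 times the lowest, and under 1.5 times for 14 of 79 members, with Rpl4 the steadiest at 1.2 and Rps7 the least steady at 11.1. The biological coefficient of variation had a median of 0.17 over members (0.099 to 0.472) and 0.188 over all genes tested. Rpl4, with 29.1% shared words, had 61.8, 66.4, 61.4 and 65.5 CPM in I/R + ML264, 62.1, 61.2, 63.4 and 61.2 CPM in I/R and 55.3, 65.1, 55.5 and 57.9 CPM in Sham. Of its 3 transcripts, however, a different one held nearly all counts in different libraries. The protein-coding transcript had 1464.5 counts in I/R + ML264 library 4, and 20.4, 10.3 and 3.4 in the other 3 libraries of that group.

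**Figure D2:**
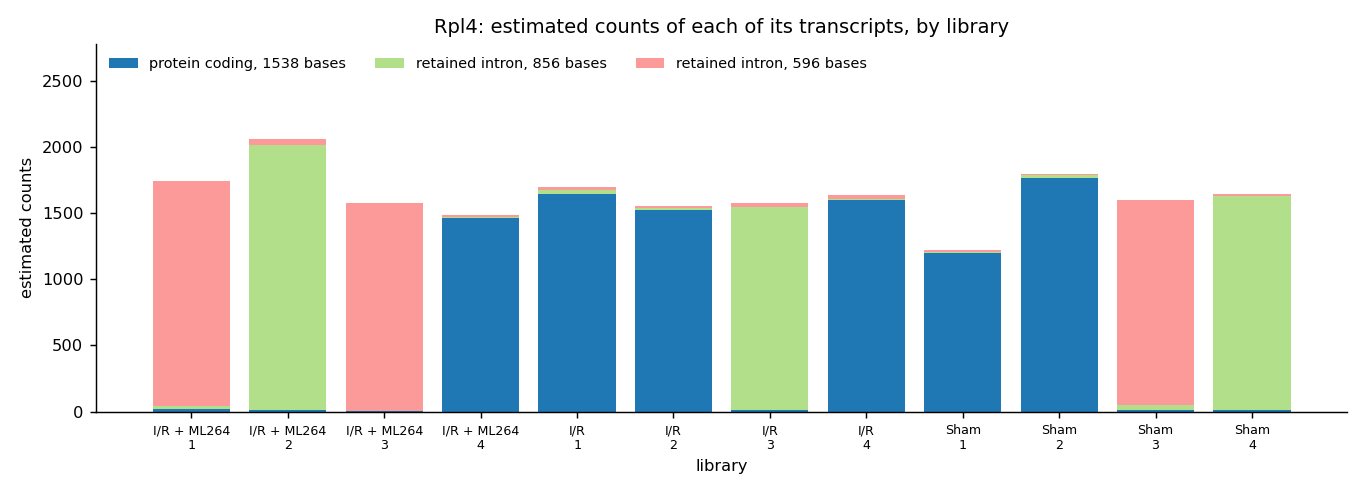
Estimated counts of the 3 transcripts of Rpl4 in each library (stacked bars), with I/R + ML264 at left, then I/R and Sham. By the labels of the table, the leading transcript is the protein-coding one of 1538 bases in 6 libraries and 1 of the retained-intron transcripts in the other 6, while the sum changes little.

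The leading transcript changed between libraries in other members too. Of 55 members with more than 1 transcript and at least 50 counts in every library, 0 had the same leading transcript in all 12 libraries, and the leading one held a median of 84.7% of a gene's counts, with the lowest median over the 12 libraries, 32.2%, in Rps19. Over 8198 other genes, 6 had the same leading transcript throughout. Protein-coding transcripts held 39.11% to 56.03% of the members' counts in 11 libraries and 85.41% in I/R library 1. Over all other nuclear genes they held 60.87% to 73.45% in those 11 libraries and 81.17% in I/R library 1. Whether a transcript label stands for the same transcript in every library of the table is not known, so transcript labels, these shares and values from protein-coding transcripts alone are uncertain. The values below are therefore sums over all transcripts of a gene, and no transcript is compared between groups.

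Sequence shared with other genes is the second limit on these values. The share of a gene's 31-base words also found in transcripts of other genes had a median of 28.3% over the 79 tested members (0.0% for Rpl3l, 94.1% for Rpl36) and was over 25% for 50 of them. Values of those 50 are uncertain, since the division of reads between the genes is an estimate. Rpl3 and Rpl5 show the problem, and a stretch of Rpl3 is given beside its pseudogene Rpl3-ps1 (GENCODE M21, GRCm38, gene strand), with coordinates of the whole genes.
Rpl3 (chr15:80077791-80091868, minus strand, coding bases 27 to 87): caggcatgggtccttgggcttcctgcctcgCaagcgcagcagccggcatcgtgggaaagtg
Rpl3-ps1 (chrX:13202571-13203780, plus strand, bases 28 to 88): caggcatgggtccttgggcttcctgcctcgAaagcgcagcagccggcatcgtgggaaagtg
The capital is the only difference in this window. Over the 1209 coding bases of Rpl3, the pseudogene differs at 2. The 891 coding bases of Rpl5 (chr5:107900502-107909005, plus strand) are all matched by Gm15500 (chr7:114705217-114706235, minus strand), so that the coding parts of these genes cannot be told apart at any depth.

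Rpl3 varied with the counts given to its pseudogene. It had 23.4, 8.46, 31.9 and 38.5 CPM in I/R + ML264, 37.4, 37.5, 33.9 and 38.6 CPM in I/R and 27.2, 35.1, 20.2 and 35.8 CPM in Sham. Rpl3-ps1 had 426 and 924 estimated counts in I/R + ML264 libraries 1 and 2 and 408 in Sham library 3, the 3 libraries in which Rpl3 was lowest, and 0 to 16 counts in the other 9. The sum of the 2 genes was 38.6, 38.3, 31.9 and 38.5 CPM in I/R + ML264, 34.6 to 38.6 CPM in I/R and 27.2 to 35.8 CPM in Sham. Rps2-ps13, a pseudogene of Rps2, likewise had 478 and 660 counts in I/R + ML264 libraries 1 and 2 and 0 in the other 10 libraries. It and Gm15500 are named after their values were seen.

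Rpl3l is the striated-muscle paralog that takes the place of Rpl3 in the ribosome, and it shares no word with another gene. It had 20, 24.2, 20.6 and 17.6 CPM in I/R + ML264, 18.3, 13.4, 17.1 and 20.2 CPM in I/R and 14.7, 17.9, 16.8 and 15.7 CPM in Sham. All groups overlapped, and it was called in no comparison (log2 fold change 0.34 ± 0.13 (SE) for I/R + ML264 against Sham, edgeR adjusted p = 0.258). The log2 ratio of Rpl3l to Rpl3 was -0.12 ± 1.15 in I/R + ML264, -1.11 ± 0.25 in I/R and -0.83 ± 0.39 in Sham (SD, n = 4). The exact two-sided permutation p was 0.114 for I/R + ML264 against I/R, 0.286 for I/R + ML264 against Sham and 0.343 for I/R against Sham, each 0.343 after adjustment over the 3 comparisons, where 0.0286 is the smallest p that 4 against 4 libraries allow. With Rpl3-ps1 added to Rpl3, the ratio itself was 0.564 ± 0.0909 in I/R + ML264, 0.465 ± 0.0739 in I/R and 0.495 ± 0.0425 in Sham. The difference of I/R + ML264 from I/R was 0.99 on the log2 scale, 0.28 with the pseudogene added and 0.45 without I/R + ML264 library 2.

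**Figure D3:**
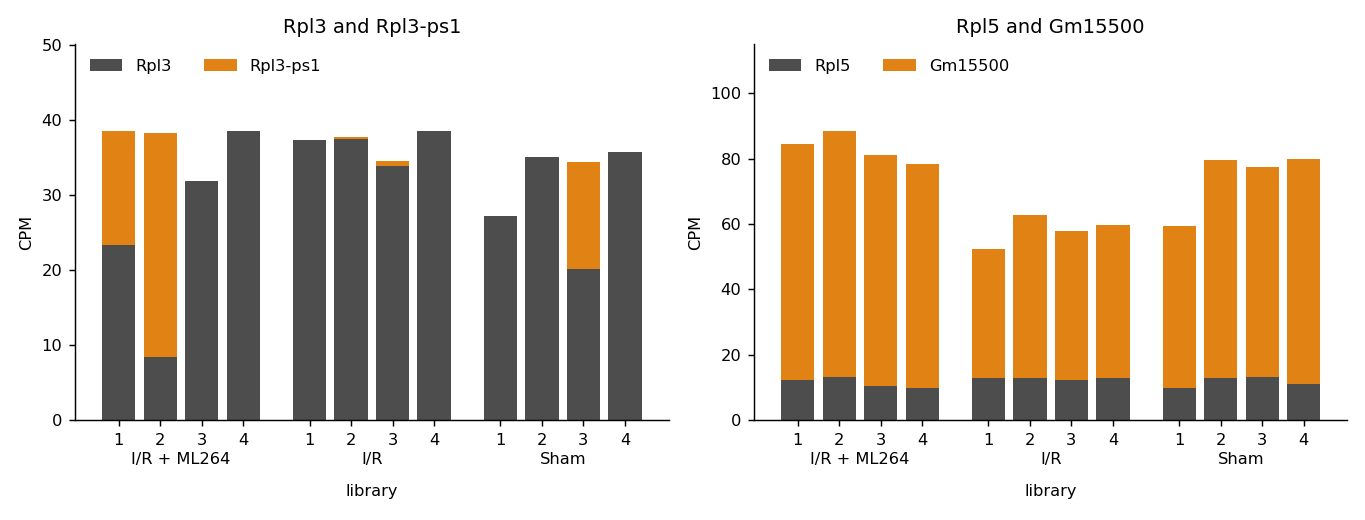
CPM of Rpl3 with Rpl3-ps1 and of Rpl5 with Gm15500 in each library (stacked bars). Rpl3-ps1 is high in I/R + ML264 libraries 1 and 2 and Sham library 3, where Rpl3 is low, and Gm15500 exceeds Rpl5 in all 12 libraries.

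I/R was compared with Sham to find what the injury changed. Of the 79 members tested, 1 rose, Rpl37a, and 1 fell, Rpl29, by edgeR's quasi-likelihood test (Benjamini-Hochberg adjusted p under 0.05), against 7.75% of all 15952 genes called (4.58% higher and 3.17% lower). DESeq2 called 5 members, beside 11.2% of the 15933 genes it tested. At an unadjusted p under 0.05 there were 16 members (20.3%, against 23.2% of all genes), and the groups did not overlap for 8 (10.1%, against 15.8%, of which 8.54% higher and 7.25% lower). These shares of members, counted in either direction, were below those of all genes. The members' median log2 fold change was 0.12, with 61 above 0 and 18 below, beside a median of 0.00 over all genes. It was 0.13 in the small and 0.12 in the large subunit. It was 0.15 for the 29 members with at most 25% shared words, among which are Rpl12 and Rpl27. For all members it was 0.07 with upper-quartile factors, beside -0.04 over all genes with those factors. No test was made of these medians.

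Rpl29, a 60S protein (chromosome 9, 106429454 to 106431568, plus strand, GRCm38), was low in I/R only. It had 12.4, 10.6, 8.65 and 12.7 CPM in I/R + ML264, 5.24, 6.45, 8.08 and 4.94 CPM in I/R and 10.2, 9.45, 9.80 and 9.48 CPM in Sham. The 4 I/R libraries lay below all libraries of the other groups. The log2 fold change of I/R against Sham was -0.66 ± 0.16 (SE, edgeR adjusted p = 0.0207). Rpl29 shares 44.9% of its words. With its 11 pseudogenes added, it averaged 10.8 ± 2.12 CPM in I/R and 12 ± 1.23 CPM in Sham (SD, n = 4), and the difference was no longer called (-0.14 ± 0.14, edgeR adjusted p = 0.591). The call also ended without I/R libraries 1 or 4 or Sham library 3 (edgeR adjusted p = 0.0569, 0.0666 and 0.0505).

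Rpl37a, a zinc-finger protein of the 60S subunit (chromosome 1, 72711290 to 72713813, plus strand, GRCm38), was high in I/R. It had 2.34, 2.39, 2.03 and 2.29 CPM in I/R + ML264, 3.74, 2.87, 4.14 and 4.04 CPM in I/R and 2.35, 2.75, 2.26 and 2.08 CPM in Sham. The I/R libraries lay above all others, with I/R library 2 close to Sham library 2. The log2 fold change of I/R against Sham was 0.65 ± 0.18 (SE, edgeR adjusted p = 0.0376), and 0.65 with the 3 pseudogenes added (edgeR adjusted p = 0.0381). Rpl37a shares 28.5% of its words. Its call ended without any 1 of I/R libraries 1, 3 and 4 and Sham libraries 1, 3 and 4 (edgeR adjusted p = 0.0669 to 0.105). It also ended with upper-quartile factors (edgeR adjusted p = 0.051), with only the 2 groups fitted (0.0534), with no filter (0.0736) and with the replicate block (0.0739).

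Other members had larger or similar changes that did not pass. Rpl27, a 60S protein, had 1.43, 3.07, 1.01 and 2.55 CPM in I/R and 1.22, 1.38, 0.591 and 0.634 CPM in Sham, a log2 fold change of 1.08 ± 0.37 (SE, edgeR adjusted p = 0.0855), and was called without I/R library 3 (1.3, edgeR adjusted p = 0.0457). With pseudogenes added its value was 0.38. Rps7, a 40S protein, had 0.696, 3.11, 4.50 and 1.42 CPM in I/R and 0.407, 0.905, 1.63 and 1.69 CPM in Sham, with a log2 fold change of 1.04 ± 0.51, which was 0.20 with pseudogenes added (64.3% shared words). In both genes I/R libraries stood on either side of the highest Sham library. Rps16, also of the 40S subunit and with 39.1% shared words, had the lowest value after Rpl29, a log2 fold change of -0.48 ± 0.24 (edgeR adjusted p = 0.235), and Rpl17, which lies at the exit tunnel and shares 79.2% of its words, had -0.27 ± 0.16.

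Of the 8 members whose groups did not overlap, 7 were higher in I/R, which is 8.86% of members beside 8.54% of all genes. These were Rpl6, Rpl11, Rpl13, Rpl37a, Rps3, Rps15a and Rps23, and only Rpl37a among them was called. Rps15a, named here after its values were seen, had 14.6, 13.9, 12 and 12 CPM in I/R and 8.69, 10.1, 6.01 and 9.51 CPM in Sham (log2 fold change 0.61 ± 0.21, edgeR adjusted p = 0.0865), with 7.0% shared words. It was called by DESeq2, as was Rps23, and by edgeR without I/R + ML264 library 1 or 2 (edgeR adjusted p = 0.037 and 0.034) or with only I/R and Sham fitted (0.0265). Rps23, which lies in the decoding centre and shares 52.7% of its words, averaged 4.77 ± 0.311 CPM in I/R and 3.40 ± 0.477 CPM in Sham (SD, n = 4).

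**Figure D4:**
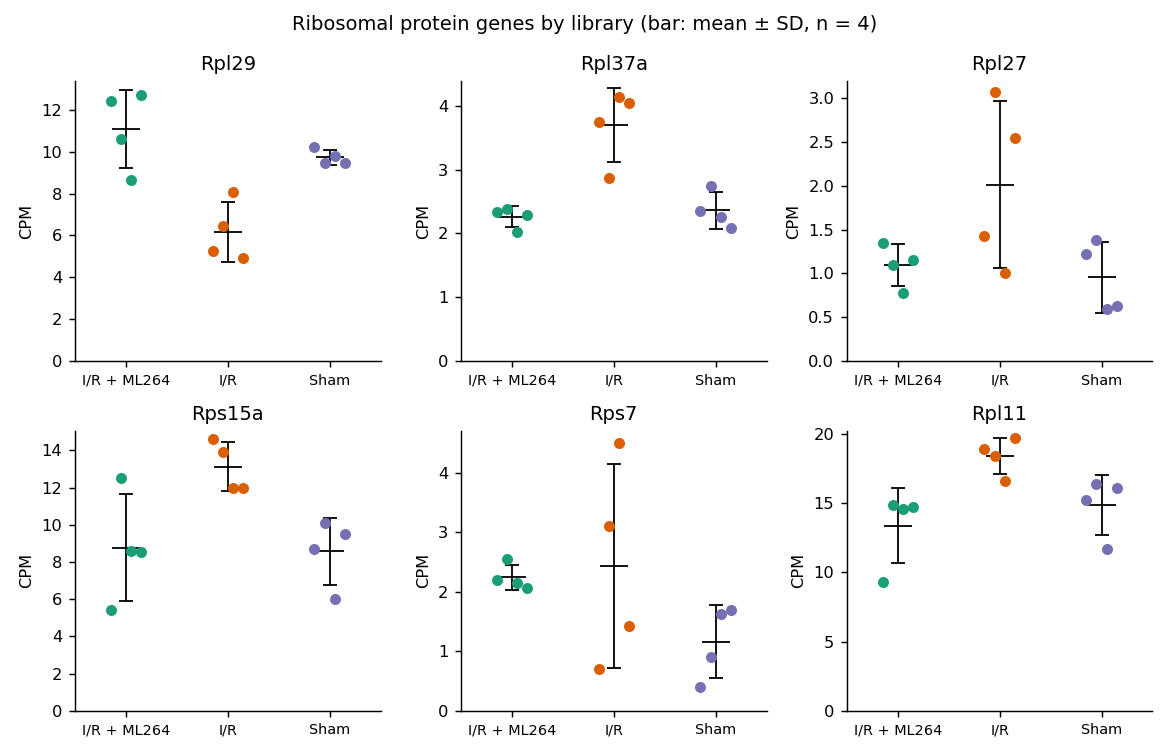
CPM of 6 ribosomal protein genes in each library (points), with I/R + ML264, I/R and Sham from left to right and bars for the mean ± SD of 4 libraries. I/R lies apart from both other groups for Rpl29, Rpl37a and Rpl11 and overlaps with Sham for Rpl27 and Rps7.

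The proteins of the stalk and Rpsa were called in no comparison, and their groups overlapped. The stalk, which recruits elongation factors, is built from Rplp0, its anchor, and dimers of Rplp1 and Rplp2. Rplp0 averaged 16 ± 2.93 CPM in I/R + ML264, 15.1 ± 2.53 in I/R and 14.4 ± 2.81 in Sham. Rplp1 averaged 0.999 ± 0.334, 1.31 ± 0.372 and 1.21 ± 0.308 CPM in the same groups, and Rplp2 averaged 1.65 ± 0.305, 2.26 ± 0.455 and 1.78 ± 0.229 CPM (SD, n = 4). Rpsa, the 40S protein also known as the laminin receptor, averaged 12.3 ± 1.79 CPM in I/R + ML264, 13.0 ± 0.523 in I/R and 12.1 ± 1.41 in Sham. The X-linked members Rpl10, Rpl36a, Rpl39 and Rps4x had log2 fold changes of 0.13, 0.05, -0.13 and -0.02 for I/R against Sham.

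Rpl5 joins Rpl11 and 5S ribosomal RNA in a particle that can bind the p53 regulator Mdm2. Rpl5 had 9.79 to 13.0 CPM in I/R + ML264, 12.3 to 12.9 CPM in I/R and 9.82 to 13.0 CPM in Sham. Gm15500, a transcribed processed pseudogene with the same coding sequence, averaged 71.7 ± 2.97 CPM in I/R + ML264, 45.4 ± 4.33 in I/R and 62.4 ± 8.76 in Sham (SD, n = 4). The sum of the 2 genes was 84.4, 88.5, 81.0 and 78.3 CPM in I/R + ML264, 52.3, 62.6, 57.7 and 59.9 CPM in I/R and 59.3, 79.4, 77.4 and 79.9 CPM in Sham. I/R + ML264 lay above I/R without overlap, and Sham library 1, at 59.3 CPM, was no higher than the highest I/R library. Gm15500 was lower in I/R than in Sham (log2 fold change -0.46 ± 0.10, edgeR adjusted p = 0.0109) and rose in I/R + ML264 against I/R (0.66 ± 0.10, edgeR adjusted p = 0.023). The second call ended without I/R + ML264 library 1 or I/R libraries 1, 3 or 4 (edgeR adjusted p = 0.0538 to 0.0832) and with a non-robust spread (0.0699). Both calls ended with protein-coding transcripts only (0.251 and 0.382). That setting leaves the counts of a pseudogene as they are and changes those of other genes. Over all genes it called 5 in I/R against Sham and 0 in I/R + ML264 against I/R. With its 4 pseudogenes added, Rpl5 fell in I/R against Sham (-0.34 ± 0.09, edgeR adjusted p = 0.0319) while I/R + ML264 against I/R gave 0.51 ± 0.09 without passing the test (edgeR adjusted p = 0.0659). Rpl11 had 9.29, 14.9, 14.6 and 14.7 CPM in I/R + ML264, 18.9, 18.4, 16.6 and 19.7 CPM in I/R and 15.2, 16.4, 11.7 and 16.1 CPM in Sham, and was called in no comparison.

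I/R + ML264 was compared with I/R to find what the inhibitor changed in injured hearts. No member was called by edgeR, against 0.0502% of all genes (8 of 15952, 0.0125% higher and 0.0376% lower), and DESeq2 called 2, Rpl29 and Rpl37a, beside 0.948% of all genes it tested. At an unadjusted p under 0.05 there were 15 members (19.0%, against 10.4% of all genes), and the groups did not overlap for 9 (11.4%, against 5.62%, of which 2.54% higher and 3.08% lower). Among them, Rpl17, Rpl18 and Rpl29 were higher in I/R + ML264, and Rpl11, Rpl36, Rpl37a and Rps23 were lower. The median log2 fold change was -0.03 over members and 0.00 over all genes. In the small subunit it was -0.09, with 8 members above 0 and 24 below, and in the large subunit 0.04, with 25 above and 22 below. With pseudogenes added, these medians were -0.03 and -0.01. This comparison and that of I/R with Sham use the same I/R libraries, so their values are not independent.

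Rpl29 had a log2 fold change of 0.84 ± 0.16 (SE, edgeR adjusted p = 0.0774) and Rpl37a of -0.71 ± 0.18 (edgeR adjusted p = 0.172) in I/R + ML264 against I/R. Rpl29 was called without I/R library 3 or I/R + ML264 libraries 2 or 3 (edgeR adjusted p = 0.0367, 0.0408 and 0.044), and with pseudogenes added it had 0.48 ± 0.14 (edgeR adjusted p = 0.222). Rpl27 had -0.88 ± 0.37 and Rpl36, a 60S protein with 94.1% shared words, -0.78 ± 0.30. Rps16 had 0.62 ± 0.24 (edgeR adjusted p = 0.36).

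Rps27l, a p53-induced paralog of Rps27, showed how far 1 library can carry a value. It had 0.461, 3.26, 0.974 and 0.794 CPM in I/R + ML264, 0.732, 0.904, 0.644 and 0.674 CPM in I/R and 0.407, 0.761, 0.521 and 0.951 CPM in Sham. I/R + ML264 library 2 stood above all other libraries, whose ranges overlapped. The log2 fold change of I/R + ML264 against I/R was 0.91 ± 0.49 (edgeR adjusted p = 0.544) and 0.01 without that library. Rps27 had 1.10, 0.872, 1.13 and 1.19 CPM in I/R + ML264, 1.10, 1.57, 1.33 and 1.05 CPM in I/R and 1.49, 1.41, 0.729 and 1.23 CPM in Sham. Rpl3, at 8.46 CPM, and Rps2, at 14 CPM, were at their lowest in the same library.

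I/R + ML264 was compared with Sham to find what still differed from uninjured hearts. No member was called by edgeR or DESeq2, against 0.288% of all genes called by edgeR (0.257% higher and 0.0313% lower) and 2.32% by DESeq2. At an unadjusted p under 0.05 there were 6 members (7.59%, against 13.0% of all genes), and the groups did not overlap for 6 (7.59%, against 7.37%, of which 3.99% higher and 3.37% lower). All 6 were higher in I/R + ML264, among them Rpl6, Rpl24, Rps3, Rps7 and Rps14. The median log2 fold change was 0.12 over members and 0.00 over all genes, with 54 members above 0 and 24 below. Rps7, with 64.3% shared words, had 2.20, 2.55, 2.14 and 2.07 CPM in I/R + ML264 and 0.407, 0.905, 1.63 and 1.69 CPM in Sham (0.93 ± 0.51, SE, edgeR adjusted p = 0.469). With pseudogenes added, Rps7 averaged 3.87 ± 1.01 CPM in I/R + ML264 and 3.3 ± 0.513 CPM in Sham (SD, n = 4), and these groups overlapped. The log2 fold change was then 0.23 ± 0.21 (SE, edgeR adjusted p = 0.686). At the low end, Rpl36 had -0.67 ± 0.31, Rps28 -0.35 ± 0.24 and Rps21 -0.32 ± 0.24 (SE).

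**Figure D5:**
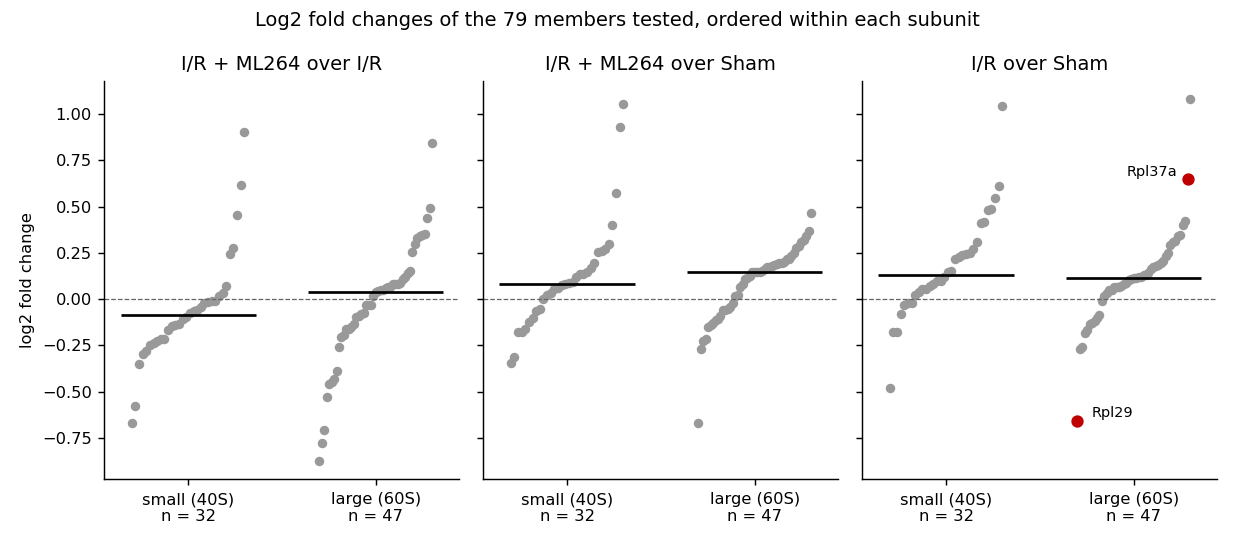
Log2 fold changes of the 79 members tested in 3 comparisons, by subunit and ordered within it, with black lines at the medians. Called members are red, and they are Rpl37a and Rpl29 in I/R over Sham alone.

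The wider machinery of ribosome assembly and translation was read from lists of genes. Of the 22 genes in these lists called in I/R against Sham, 5 stayed called whichever single library was left out: Utp14a, Sbds, Nop58, Mlst8 and Mxd1. With a covariate for Y-linked transcripts 16 of the 22 calls were lost and with one for Arntl 15, Nop58 in both (edgeR adjusted p = 0.0767 and 0.0792). All 22 were lost with protein-coding transcripts only. Over all genes these 3 settings called 451, 649 and 5, against 1236 in the main fit. The last setting lost nearly all calls, so it says little about these 22 genes. The replicate block ended 7 of the 22 calls (Eef1a1, Eif2b3, Eif4e2, Myc, Ncl, Nemf and Rsl24d1), no filter 6, and upper-quartile factors or only the 2 groups fitted 3 each. In that comparison 6 of 77 tested RNA polymerase I and nucleolar assembly factors rose and 2 fell (10.4% called, beside 7.75% of all genes, 4.58% higher and 3.17% lower), with a median log2 fold change of 0.10. Utp14a, of the small subunit processome, averaged 31.1 ± 3.43 CPM in I/R and 21.1 ± 1.26 CPM in Sham (SD, n = 4; log2 fold change 0.56 ± 0.10, SE). Sbds, which helps release eIF6 from the 60S subunit, averaged 11.6 ± 1.02 CPM in I/R and 6.96 ± 1.09 CPM in Sham (0.74 ± 0.15). Nop58, a protein of box C/D snoRNPs, averaged 33.3 ± 7.24 CPM in I/R and 22.6 ± 2.02 CPM in Sham (0.56 ± 0.13). For all 3, the libraries of I/R lay above those of Sham. Tsr1 (-0.60 ± 0.14) and Rsl24d1 (-0.52 ± 0.15) fell, with the first call lost without Sham library 2 (edgeR adjusted p = 0.0548) and the second without any 1 of 9 libraries (0.051 to 0.139). By edgeR, 0 of the 77 were called in a comparison with I/R + ML264, beside 0.0502% of all genes against I/R and 0.288% against Sham.

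Of 18 translation factors with TOP mRNAs, 3 rose in I/R against Sham and 0 fell (16.7%, beside the same 7.75% of all genes), with a median log2 fold change of 0.09. They were Naca (0.31 ± 0.08) and Btf3 (0.55 ± 0.15), the subunits of the nascent polypeptide-associated complex, and Eef1a1 (0.28 ± 0.08), the elongation factor that brings tRNA to the ribosome. All 3 calls depended on which libraries were included. The call of Naca ended without I/R libraries 1, 3 or 4 or Sham libraries 3 or 4 (edgeR adjusted p = 0.0566 to 0.0718). That of Btf3 ended without I/R libraries 2, 3 or 4 or Sham libraries 1, 2 or 4 (0.0517 to 0.114), and that of Eef1a1 without I/R libraries 2, 3 or 4 or any 1 Sham library (0.0552 to 0.12). Of 32 other initiation factors, 2 rose and 2 fell (12.5%). Eif5, which activates GTP hydrolysis by eIF2, rose by 0.40 ± 0.10, a call that ended without Sham libraries 1 or 4 (edgeR adjusted p = 0.0534 and 0.0574). Eif1a (0.60 ± 0.16) also rose, and Eif2b3 (-0.55 ± 0.16) and Eif4e2 (-0.25 ± 0.07) fell, calls that were lost without any 1 of 6, 10 and 11 of the 12 libraries.

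Of 7 ribosomal proteins outside the naming rule, 1 was called in I/R against Sham (14.3%, beside 7.75% of all genes). It was Rack1, on the head of the 40S subunit (0.39 ± 0.10, SE, edgeR adjusted p = 0.0259). It had 29.3, 25.7, 25.1 and 32.3 CPM in I/R against 20.2, 20.6, 22.2 and 22.8 CPM in Sham, so that all I/R libraries were higher. The call ended without I/R libraries 1 or 4 or Sham libraries 1, 2 or 3 (edgeR adjusted p = 0.0527 to 0.0853).

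Among 23 genes of mTORC1 and LARP1 signalling, 1 rose and 1 fell in I/R against Sham (8.7%, beside 7.75% of all genes). Mlst8, a subunit of mTORC1, fell (-1.12 ± 0.24, edgeR adjusted p = 0.00936). It averaged 1.22 ± 0.267 CPM in I/R + ML264, 1.47 ± 0.188 in I/R and 3.22 ± 0.784 in Sham (SD, n = 4). I/R + ML264 against Sham, which shares the Sham libraries, gave -1.39 ± 0.24 (edgeR adjusted p = 0.0204). That call ended without I/R + ML264 libraries 2 or 4 or Sham libraries 2 or 3 (edgeR adjusted p = 0.0504 to 0.0991). It also ended with either covariate (0.058 for Y-linked transcripts and 0.0925 for Arntl). With protein-coding transcripts only it ended too (0.222), but that setting called 1 gene of all in this comparison. Rheb, the activator of mTORC1, rose in I/R against Sham (0.44 ± 0.12). Its call ended without I/R libraries 2 or 4 or Sham libraries 1, 2 or 4 (edgeR adjusted p = 0.0597 to 0.0859).

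Of 9 genes of the MYC network, 2 were called in I/R against Sham, both higher (22.2%, beside 7.75% of all genes). Mxd1, a repressor at sites that Myc binds, averaged 5.02 ± 0.522 CPM in I/R and 2.86 ± 0.275 CPM in Sham (log2 fold change 0.81 ± 0.16). Myc, a driver of ribosome synthesis, averaged 9.36 ± 5.12 CPM in I/R and 2.03 ± 1.06 CPM in Sham (2.22 ± 0.53), and its call ended without I/R libraries 2, 3 or 4 or Sham libraries 2, 3 or 4 (edgeR adjusted p = 0.0514 to 0.0981). Of 17 genes of ribosome rescue, 1 rose and 1 fell in I/R against Sham (11.8%, beside 7.75% of all genes). Nemf rose (0.27 ± 0.07) and Ankzf1 fell (-0.92 ± 0.23), calls lost without any 1 of 7 and 3 libraries. Of 78 mitochondrial ribosomal protein genes, 0 were called by edgeR in any comparison, and so were 0 of the 26 named pseudogenes that passed the filter. Of 10 TOP snoRNA host genes listed, 0 passed the filter.

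Markers of other cell types were measured in the same libraries. Endothelial markers summed to 363.2 to 454.7 CPM in I/R + ML264, 353.9 to 414.8 in I/R and 428.4 to 521.3 in Sham, and 2 of 6 fell in I/R against Sham. Neutrophil markers summed to 4.75 to 20, 8.06 to 19.6 and 4.76 to 7.26 CPM in the same groups, with 0 of 6 called. Macrophage markers summed to 53.9 to 69.5, 52.0 to 67.4 and 59.9 to 106.4 CPM, and 1 of 6 fell in I/R against Sham. Of the cardiomyocyte markers 1 of 6 rose in I/R against Sham. By edgeR, 0 markers of fibroblasts, of T, B and NK cells or of erythroid cells were called in any comparison. Beside these counts, edgeR called 7.75% of all genes for I/R against Sham, 3.17% falling and 4.58% rising. For I/R + ML264 it called 0.0502% of all genes when set against I/R and 0.288% when set against Sham. No marker was at 0, and their part in the values of the ribosomal protein genes was not tested. With Y-linked transcripts as a covariate, neither Rpl29 (-0.57, edgeR adjusted p = 0.0866) nor Rpl37a (0.57, edgeR adjusted p = 0.141) was called in I/R against Sham, nor were they with Arntl as a covariate (-0.67 and 0.71, edgeR adjusted p = 0.0586 and 0.068).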

How the data were processed

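RNA was measured in 12 mouse heart libraries. The authors deposited estimated counts per transcript for each library, without normalization. The submitters' processing notes name FastQC, kallisto and GRCm38 (mm10), with no version and no annotation release in the sources used here. Libraries were Nextera XT preparations of double-stranded cDNA, per the labels' protocols, which do not state strand. The transcripts of each symbol were added up and the sums rounded, after which filterByExpr (minimum count 10) left 15952 genes. edgeR 4.0.16 in R 4.3.3 (TMM factors, robust quasi-likelihood F-test) was fitted over all 12 libraries and tested on simulated data. A gene is called where its p, adjusted over all genes by Benjamini-Hochberg, is under 0.05. CPM values are scaled by TMM. The limit for a count of 0 is not scaled by TMM and covers counting error alone.

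CPM per kb divides by the median length of a gene's protein-coding transcripts, chosen after the transcript values were seen. Shared sequence was counted as 31-base words against GENCODE M21, which held 98.6% of the transcripts by accession. Genes with over 25% shared words are uncertain, and so are some at or under 25%, such as Rpl12 and Rpl27. Members and lists were chosen with earlier results of these data known. Named are the called members, the 3 highest and 3 lowest log2 fold changes per comparison, the 5 highest and 5 lowest levels per length, Rplp0 to Rplp2, Rpl3, Rpl3l, Rps27, Rps27l, Rpsa, X-linked members, and up to 3 called genes per list. Other genes, among them Rpl5, Gm15500, Rpl11, Rps2, Rps2-ps13, Rps6, Rps15a and Rps23, were chosen after their values were seen. Some genes that the rule names are not reported here.

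Alternatives were DESeq2 1.42.0, RLE and upper-quartile factors, 2 other filters, 2-group fits, the replicate block, a non-robust spread, mitochondrially encoded genes left out, named pseudogenes added, protein-coding transcripts only, Y-linked or Arntl covariates and each library left out. Adding every annotated pseudogene with at least 50% of its words in a member was chosen after seeing the data.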

Additional observations from a re-analysis of the deposited data

Results flagged for a closer look

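Of 174 groups of 4 libraries examined, 10 had 1 library far from the other 3, and chance gives this in about 1 in 20 groups. The ratio of Rpl3l to Rpl3 was 2.86 in I/R + ML264 library 2 and 0.457 to 0.855 in the rest of that group. Rpl3 had 262 counts and Rpl3-ps1 924 in that library, and with the pseudogene added the ratio was 0.632. The summed share of ribosomal protein genes was 0.0627% in Sham library 1 and 0.0736% to 0.0755% in the other 3 Sham libraries. Sham library 1 also had the lowest total, 22.26 M counts.

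Among members, I/R + ML264 library 1 was low for Rpl11 (9.29 CPM, others 14.6 to 14.9), and I/R library 4 was low for Rps23 (4.31 CPM, others 4.87 to 4.98). Among list genes, I/R + ML264 library 1 was low for Btf3 (5.46 CPM, others 6.7 to 6.91) and I/R + ML264 library 4 for Nemf (34.5 CPM, others 36.5 to 36.8). I/R library 4 was high for Ncl (288.6 CPM, others 258.3 to 262.5) and I/R library 1 low for Sbds (10.1 CPM, others 12 to 12.2). Sham library 1 was high for Gnl3 (13 CPM, others 11.1 to 11.4) and Sham library 2 for Tsr1 (16.5 CPM, others 12.2 to 12.7).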

How the results depend on the processing

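In I/R against Sham, 1 member (Rpl29) was called with upper-quartile factors, with no filter or with the replicate block, 0 with protein-coding transcripts only or with a covariate for Y-linked transcripts or for Arntl, 5 with DESeq2, and 0 to 3 with 1 library left out. In I/R + ML264 against I/R, 1 was called with no filter, 2 with DESeq2 and 0 to 1 with 1 library left out, and in I/R + ML264 against Sham 0 under all alternatives. With protein-coding transcripts only, log2 fold changes of I/R against Sham reversed to -0.16 for Rpl37a, -0.048 for Btf3, -0.13 for Eef1a1, -0.67 for Npm1, 0.28 for Rsl24d1, 5.73 for Tsr1 and -0.24 for Utp14a. None of these passed the test, and this setting, which takes 1 class of transcripts whose division varies between libraries, called 5 genes in all and gave no ratio of Rpl3l to Rpl3. Rpl5 was -0.34 with pseudogenes added by sequence, a setting chosen after seeing the data, and was not called without them. The cause of the other changes was not tested. The summed shares in I/R + ML264, I/R and Sham were 0.08701%, 0.07941% and 0.07877% with named pseudogenes added, 0.09613%, 0.08531% and 0.08668% with pseudogenes added by sequence, 0.03712%, 0.04279% and 0.03592% with protein-coding transcripts only, and 0.1244%, 0.1209% and 0.1166% with mitochondrially encoded genes left out. Over all genes, I/R against Sham had 1236 calls (731 higher), 1779 with DESeq2, 1296 (620 higher) with upper-quartile factors, 451 and 649 with those covariates and 694 to 1485 or 659 to 1035 without 1 injured or 1 Sham library. I/R + ML264 against I/R had 8 calls, 151 with DESeq2, 22 with no filter, 2 with a non-robust spread, 0 with protein-coding transcripts only and 0 to 85 with 1 library left out (0 without I/R + ML264 library 1, 85 without its library 2, and 2 without I/R library 1 or 4). I/R + ML264 against Sham had 46 calls, 370 with DESeq2, 78 with no filter and 9 to 101 with 1 library left out. Replicate numbers did not pair the libraries (correlations of -0.11 to 0.097), and the replicate block gave 1009, 1 and 19 calls in these comparisons. Members with few counts, such as Rps4l with 222 in all, are limited by depth.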
